A study of Mus musculus with 3 samples.

Results

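The genes described here are 36 genes of glucose use: the transporters of glucose and lactate, the enzymes of glycolysis, the enzymes that set its rate or close the entry of pyruvate into mitochondria, and the main enzymes of the pentose phosphate pathway. They were taken by symbol from a table of 27179 genes, and all 36 were matched. RNA was counted in 3 libraries, all of 1 group: stem and progenitor cells of epididymal white fat, taken by flow sorting from naive wild-type C57B6 males at 12 weeks of age. The sort kept cells that carried CD140a, Sca1 and podoplanin and lacked CD45, CD31 and Ter119, so each library is a pool of every cell in that gate. The labels give no treatment, no control and no other cell type, which leaves comparisons between genes within a library and between libraries. Whether a library stands for a single animal is not stated, so p-values measure only the spread between these samples, part of which may be technical.

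The libraries held 25060096 to 32813373 counts, and the 36 genes together made up 0.133%, 0.145% and 0.153% of the counts in replicates 1, 2 and 3 (95% exact binomial intervals 0.132% to 0.135%, 0.144% to 0.147% and 0.151% to 0.154%, which cover counting error only). Levels are CPM, read counts scaled to a common library size, given as mean ± SD over n = 3 libraries, and members are ranked against each other as CPM per kilobase of exon. The sort genes were present, with Pdgfra at 1501, 1476 and 1476 CPM. Other cell types were traced through marker lists. Of 14 leukocyte and macrophage markers 1 was detected (Ptprc), and their summed level was 6.68 to 29.6 CPM. The skeletal muscle (0 of 7 detected, 1.10 to 7.21 CPM), mature adipocyte (0 of 8, 2.11 to 10.3 CPM), erythroid (0 of 5 measured, 0 to 3.15 CPM) and endothelial lists (0 of 6, 0.0945 to 0.198 CPM) were low in every library. Fewer cells expressing a gene and less RNA per cell cannot be told apart in such pools.

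Glycolysis splits glucose into pyruvate, and several of its steps can be run by alternative enzymes, encoded by separate genes, that differ in regulation and in tissue. Pyruvate is either reduced to lactate and exported, or enters mitochondria through the pyruvate dehydrogenase complex, which the PDK kinases switch off. The pentose phosphate pathway branches off after the hexokinase step and yields NADPH and ribose. Fat cell precursors use these routes for energy, for NADPH in lipid synthesis and for the glycerol backbone of stored fat.

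Of the 36 genes, 27 (75%) were detected, meaning that none of the 3 libraries fell below 1 CPM. The same rule was met by 35.0% of all genes in the table and 43.7% of protein-coding genes. The median member stood at 13.7 CPM, or 3.29 CPM per kilobase, against 1.90 CPM and 0.476 CPM per kilobase for protein-coding genes. The 9 members that were not detected were Slc2a1, Slc16a3, Hk3, Pfkl, Aldoc, Pgam1, Pfkfb1, Pdk1 and Pdk3. All 9 had at least 1 count in at least 1 library.

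Per kilobase of exon, the aldolase gene Aldoa was the highest member at 82 ± 6.32 CPM per kilobase, at percentile 97.1 of 20730 protein-coding genes. It was followed by the lactate dehydrogenase gene Ldha (43.5 ± 2.87), the triose phosphate isomerase gene Tpi1 (31.8 ± 4.61) and the hexokinase gene Hk2 (27.2 ± 5.05). Aldoa lay above Ldha and Ldha above Tpi1 in every library, and G6pdx above Pfkp. The other 32 of 35 neighbouring places in the order were held by genes whose values overlapped between libraries. The place of Pfkp depends on its merged exons of 13.4 kb, as it ranked 8 per kilobase but 2 in CPM. Before length is considered, Pfkp lay above G6pdx in every library, at 153, 170 and 172 CPM against 43.8, 69.6 and 96.3.

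**Figure D1:**
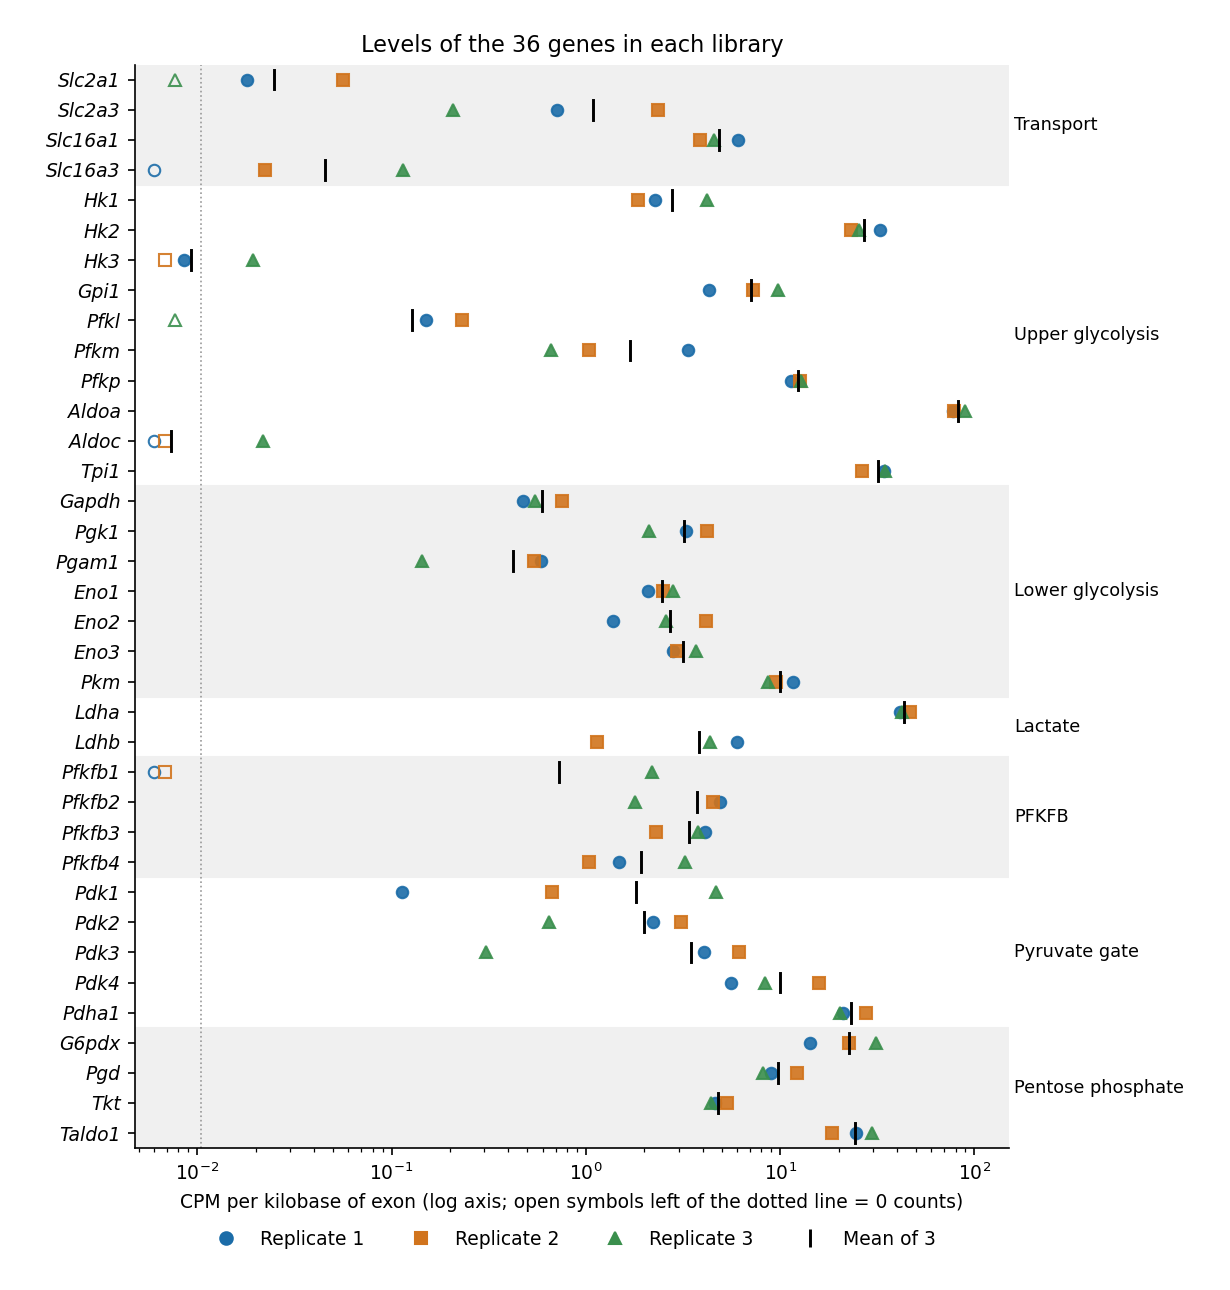
CPM per kilobase of exon (horizontal log axis) of the 36 genes in each of the 3 libraries, grouped by role, with the mean as a vertical bar and open symbols for 0 counts. Aldoa, Ldha, Tpi1 and Hk2 sit highest with tight replicates, while Pfkfb1, Pdk1 and Pdk3 spread widely between libraries.

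The transporters were lopsided. The glucose transporter gene Slc2a1, which encodes GLUT1, the common basal transporter of many cell types, had 2, 5 and 0 counts in replicates 1, 2 and 3. Those are 0.0630, 0.198 and 0 CPM, near the limit that a count of 0 allows (3 counts, or 0.0945, 0.119 and 0.107 CPM). Slc2a3, which encodes the high-affinity transporter GLUT3, stood at 5.13, 17.0 and 1.5 CPM and exceeded Slc2a1 in every library. Its mean was 3.32 CPM without replicate 2, against 7.89 with it, and that of Slc2a1 0.0315 against 0.0870. The 14 leukocyte markers together were also highest in replicate 2, at 29.6 CPM against 6.68 and 19.3, with C1qb, S100a8 and S100a9 at 0 counts in every library. Ptprc (15.8 CPM) and Cd52 (9.91) made up most of the sum in replicate 2, where Lyz2, C1qa, C1qc and Adgre1 had 0 counts. Csf1r (0.0630, 2.18 and 0.143 CPM) and Cd68 (0.221, 1.70 and 0 CPM) were highest in replicate 2, where Slc2a3 was highest. Cd52 was higher in replicate 3 (11.4 CPM), where Slc2a3 was lowest. The part of leukocyte RNA in the Slc2a3 level was not tested.

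Of 11 further transport genes listed for comparison, 5 were detected (Slc2a8, Slc2a10, Slc2a13, Slc16a7 and Bsg). Slc2a8 had 10.9, 3.65 and 5.18 CPM, with a mean of 2.05 CPM per kilobase, against 1.09 for Slc2a3. Slc2a10, which encodes GLUT10, had 8.66, 12.1 and 59.1 CPM, with a mean of 26.6 CPM, or 10.4 without replicate 3. Slc2a13, a proton and myo-inositol cotransporter gene, had 7.12, 20.4 and 6.32 CPM, with a mean of 11.3 CPM, or 6.72 without replicate 2. The insulin-responsive transporter gene Slc2a4 was at 0.0945, 0.872 and 0 CPM, and the liver-type Slc2a2 and the fructose transporter gene Slc2a5 had 0 counts in every library. The genes of GLUT1 and GLUT4 were thus not among the detected transporters.

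For monocarboxylates such as lactate, Slc16a1 (MCT1) was at 26.8, 17.1 and 20.2 CPM, and Slc16a3 (MCT4, the exporter typical of strongly glycolytic cells) at 0, 0.119 and 0.607 CPM. The values of the 2 genes did not overlap, and Slc16a3 was at 0.0594 CPM without replicate 3, against 0.242 with it. Slc16a1 accounted for 99.0% ± 1.28 of the summed per-kilobase level of the pair. Their chaperone gene Bsg was at 195 ± 47.8 CPM. The pair does not cover the family, since Slc16a7, from the further transport genes, was also detected, at 1.61, 17.5 and 8.79 CPM. Per kilobase the mean of Slc16a7 was 0.785 CPM, against 4.83 for Slc16a1.

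Hexokinase traps glucose in the cell by phosphorylating it, and Hk2, the inducible form that is typical of insulin-sensitive tissue, was the predominant hexokinase gene. Hk2 (chr6:82725025-82774454, GRCm38) had 196, 139 and 152 CPM. Hk1 (chr10:62268855-62379920), the widely expressed form, had 19.4, 15.9 and 35.7 CPM. Hk3 (chr13:55005985-55021475), a form known from myeloid cells, had 1, 0 and 2 counts. Hk2 exceeded Hk1 by 3.34 ± 0.66 on the log2 scale per kilobase of exon, or 10.1-fold, with the same sign in 3 of 3 libraries. The difference was 2.45 with the length of the longest transcript and 2.82 without length correction. Hk2 made up 93.5%, 92.6% and 85.8% of the summed per-kilobase level of the 3 genes. The ratio of Hk2 to Hk3 was 2874, taken from summed counts per kilobase (95% exact interval 983 to 13937, for counting error only). Hk3 was at 0.0158 CPM without replicate 3, against 0.0343 with it.

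The 3 hexokinase genes are shown because they differ even where they are most alike. The stretch is the 90 bases, within 1 coding exon of Hk2, in which Hk2 is most like Hk1 and Hk3 together, and capitals mark the bases that differ from Hk2. They lie at chr6:82731052-82731141, chr10:62281037-62281126 and chr13:55008679-55008768, all on the minus strand of GRCm38 (GENCODE M21).
Hk2: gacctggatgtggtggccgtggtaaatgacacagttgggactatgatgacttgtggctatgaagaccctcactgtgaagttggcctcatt
Hk1: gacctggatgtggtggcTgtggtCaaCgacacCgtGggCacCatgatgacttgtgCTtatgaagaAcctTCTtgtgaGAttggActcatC
Hk3: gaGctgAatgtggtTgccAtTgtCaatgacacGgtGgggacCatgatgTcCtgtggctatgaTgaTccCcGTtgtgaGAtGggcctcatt
Even there, Hk1 differed from Hk2 at 17 bases and Hk3 at 19. Over the whole aligned coding sequence Hk1 and Hk2 were 71.5% identical, with no identical run longer than 27 bases.

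Phosphofructokinase commits sugar to glycolysis, and its platelet-type gene Pfkp carried most of the measured level. Pfkp had 153, 170 and 172 CPM, the muscle-type Pfkm 11.2, 3.49 and 2.21 CPM, and the liver-type Pfkl 1.01, 1.55 and 0 CPM. Per kilobase, this order of the 3 genes held in every library. Pfkp exceeded Pfkm by 3.03 ± 1.18 in log2 units per kilobase (8.19-fold). The difference was 3.70 without replicate 1, and 5.04 without length correction, where the merged exons of Pfkp measure 13.4 kb. Pfkm was at 2.85 CPM without replicate 1, against 5.65 with it, and Pfkl at 0.504 without replicate 2, against 0.851. Markers of skeletal muscle were lowest in replicate 1, at a summed 1.10 CPM, where Pfkm was highest. Single markers differed: Myh1 (1 count) and Myh4 (3 counts) had counts in replicate 1 alone, and Tnnt3 had 27, 71 and 0 counts. Tnni2, Mylpf and Ckm were highest in replicate 3, and Acta1 in replicate 2. The part of muscle RNA in the Pfkm level was not tested.

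Aldolase splits the sugar in 2, and isomerases act before and after it. Aldoa was at 226, 230 and 260 CPM, while Aldoc, the brain-type aldolase gene, had 2 counts, both in replicate 3, and so 0 without it. Tpi1 was at 94.6, 72.8 and 95.1 CPM. Gpi1, the glucose-6-phosphate isomerase gene, was at 27.6, 46.6 and 62.9 CPM and so varied by 2.28-fold.

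In lower glycolysis, which turns triose phosphate into pyruvate, Gapdh and Pgam1 were the lowest genes per kilobase (0.591 and 0.424 CPM per kilobase). Gapdh, the glyceraldehyde-3-phosphate dehydrogenase gene often used as a reference for abundance, had 62, 79 and 63 counts, or 1.95, 3.13 and 2.25 CPM. Pgk1, the phosphoglycerate kinase gene on the X chromosome, had 7.34, 9.43 and 4.75 CPM, and Pgam1, the phosphoglycerate mutase gene, 1.17, 1.07 and 0.286 CPM. The enolase gene Eno1 had 11.2, 13.4 and 15.0 CPM. Pkm, the pyruvate kinase gene, reached 58.5, 47.7 and 43.3 CPM, and because the table counts genes, its M1 and M2 splice forms cannot be separated. With Eno2 and Eno3, these 7 genes had a median of 2.70 CPM per kilobase, against 4.93 for the 10 upper glycolysis genes. Gapdh, Pgk1, Pgam1 and Eno1 share 83.3% to 100% of their short coding stretches with other genes, as set out below. Their levels are uncertain, and so is this comparison of medians.

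Several of these genes have a coding sequence that is repeated elsewhere in the genome as processed pseudogenes, reverse-transcribed copies of an mRNA. Gapdh had 144 matching processed pseudogenes (90% identity over 50% of the coding sequence), Ldha 9, Eno1 5, Pkm 4 and Pgam1 3. Pgk1 and Aldoa had 2 each. Gpi1, Tpi1, Ldhb, Pdha1 and Taldo1 had 1 each, and the other 24 members none. A read is ambiguous where its bases are copied exactly, so each coding sequence was also cut into all its overlapping windows of 50 bases. An exact copy in a transcript of another gene existed for 100% of the windows of Pgk1 and Pgam1, 94.2% of Gapdh and 83.3% of Eno1. The share was 46.9% for Pkm, 35.6% for Ldhb, 32.4% for Gpi1 and 28.4% for Ldha. It was 16.8% or less for Aldoa, Tpi1, Taldo1, G6pdx and Pdha1, and 0% for the other 23 members. With windows of 100 bases, the share stayed at 100%, 100%, 93.9% and 69.3% for the first 4 genes and was 11.7% or less for the others.

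The pseudogene Pgam1-ps2 (chr7:27469771-27470535) holds the whole coding sequence of Pgam1, 762 bases, without a mismatch. In the same way Gm5537 (chr3:58102996-58104247) holds the 1251 coding bases of Pgk1. Neither pseudogene was in the table. Of 221 genes that copy at least 1 window of Gapdh, 11 had a row of their own. Gm12070, which differs from Gapdh at 1 of 999 aligned bases, had 0, 0 and 1 counts. Eno1b, a protein-coding copy of Eno1 that shares 80.7% of its windows, had 8, 6 and 12 counts. The rows of these 2 copies thus held few counts.

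The Gapdh stretch shown is 90 bases of 1 coding exon at chr6:125162235-125162324 (minus strand). It was picked among stretches that occur exactly in the pseudogene Gm7336, so that match was fixed by the choice. It occurs without a mismatch in the pseudogenes Gm7336 (chr7:51747516-51747605) and Gm5523 (chr1:13785976-13786065), so the letters of this stretch do not name a single gene.
Gapdh: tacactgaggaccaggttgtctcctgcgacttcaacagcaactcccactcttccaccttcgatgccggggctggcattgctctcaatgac
For enolase, a pseudogene can be set beside true alternative genes. Over the 1302 coding bases of Eno1, the pseudogene Gm4735 differed at 5, while Eno2 was 75.3% and Eno3 76.7% identical to Eno1. The stretch shown was picked among those that occur exactly in Gm4735, so its identity with that copy was fixed by the choice. The stretch at chr4:150245121-150245210 of Eno1 is identical in the pseudogene Gm4735 (chr2:80837591-80837680), whereas Eno2 (chr6:124766232-124766321) differs from it at 14 bases and Eno3 (chr11:70660666-70660755) at 15, marked in capitals.
Eno1: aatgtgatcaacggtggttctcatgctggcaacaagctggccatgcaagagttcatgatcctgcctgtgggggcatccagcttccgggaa
Eno2: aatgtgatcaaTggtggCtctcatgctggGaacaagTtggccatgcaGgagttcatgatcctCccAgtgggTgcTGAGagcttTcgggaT
Eno3: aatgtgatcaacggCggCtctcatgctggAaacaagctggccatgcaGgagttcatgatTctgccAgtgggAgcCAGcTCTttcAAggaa

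Over the 13 members with any copied window, the level per kilobase was lower where more of the coding sequence was copied (Spearman's rho -0.78, and Pearson's r -0.87 with log2 levels). This is a description over genes measured in the same libraries, and genes are not replicates. The 4 genes above 80% lay between 0.424 and 3.20 CPM per kilobase, and the 9 genes below it between 3.84 and 82. The 23 members with no copied window covered 0.00730 to 27.2 CPM per kilobase. How reads with several matching places were counted is not given in the sources used here, and the part of the copies in these levels was not tested. The levels of Gapdh, Pgk1, Pgam1 and Eno1 are therefore uncertain, as is their place in the order of genes.

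**Figure D2:**
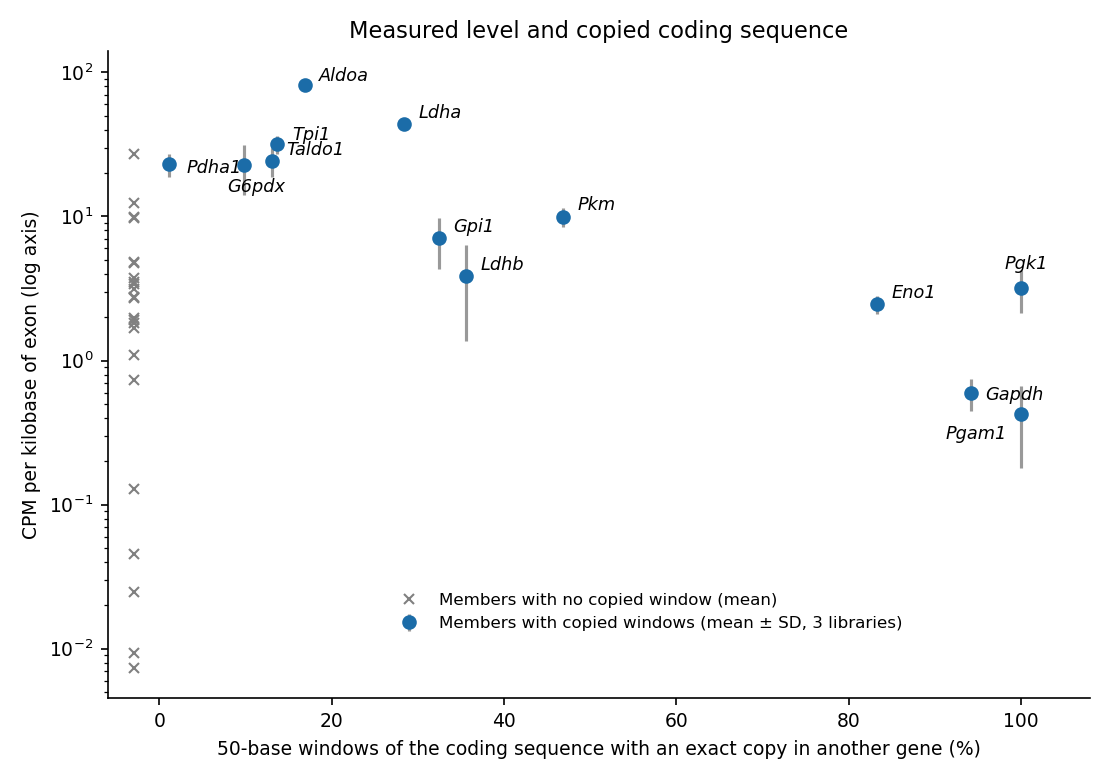
Mean CPM per kilobase of exon (vertical log axis, bars ± SD over 3 libraries) against the percentage of 50-base coding windows with an exact copy in another gene. Gapdh, Pgk1, Pgam1 and Eno1, with 83.3% to 100% of windows copied, lie at 3.20 CPM per kilobase or below, and crosses at the left mark the 23 members with none.

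Among the enolase genes no order held. Eno2, the neuronal form, was at 6.49, 19.6 and 12.1 CPM and Eno3, the muscle form, at 4.88, 5.15 and 6.43 CPM. Per kilobase, Eno3 exceeded Eno1 by 0.43 ± 0.09 in log2 units in every library, but the sign turned with the length of the longest transcript (-0.82) or the coding length (-1.19). Eno2 and Eno3 had no copied windows, against 83.3% for Eno1.

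Lactate dehydrogenase interconverts pyruvate and lactate, and its subunit A gene was far above subunit B. Ldha had 137, 155 and 140 CPM and Ldhb 9.45, 1.78 and 6.86 CPM. The values did not overlap, and Ldha exceeded Ldhb by 3.64 ± 1.21 on the log2 scale per kilobase (12.4-fold) in 3 of 3 libraries. The difference was 2.95 without replicate 2 and 4.71 without length correction. Ldha made up 91.9% ± 5.26 of the summed per-kilobase level. Ldhc, the testis form, had 0, 6 and 59 counts.
The stretch of Ldha at chr7:46850225-46850314 (plus strand) is set beside its pseudogene Gm5452 (chr13:83832632-83832721) and Ldhb (chr6:142498542-142498631), because Ldha has 9 pseudogenes but fewer copied windows than Gapdh. Capitals mark bases that differ from Ldha.
Ldha: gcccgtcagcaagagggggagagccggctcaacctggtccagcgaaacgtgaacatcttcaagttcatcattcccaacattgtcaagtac
Gm5452: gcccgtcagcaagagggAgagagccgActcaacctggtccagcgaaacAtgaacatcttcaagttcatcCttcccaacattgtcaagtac
Ldhb: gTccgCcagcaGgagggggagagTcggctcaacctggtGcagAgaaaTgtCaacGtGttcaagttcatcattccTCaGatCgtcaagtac
The pseudogene differed at 4 of the 90 bases and Ldhb at 14. This is the stretch, within 1 coding exon, in which Ldha is most like Gm5452 and Ldhb together. Over the whole aligned coding sequence Ldha and Ldhb were 71.7% identical.

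The PFKFB enzymes make and break fructose 2,6-bisphosphate, the strongest activator of phosphofructokinase. Pfkfb2 was at 35.7, 32.8 and 13.0 CPM, and Pfkfb3, whose product favours synthesis, at 30.9, 17.3 and 28.6 CPM. These 2 genes did not differ per kilobase beyond their spread (0.06 ± 1.02 on the log2 scale, Pfkfb2 higher in 2 of 3 libraries). Pfkfb4, a hypoxia-responsive form, was at 7.25, 5.07 and 15.7 CPM, and Pfkfb3 exceeded it in 3 of 3 libraries, by 0.88 ± 0.60 (log2, per kilobase), or 1.51 without length correction. Pfkfb4 was at 6.16 CPM without replicate 3, against 9.34 with it. Pfkfb1, the liver and muscle form, had 0, 0 and 247 counts, so its level of 8.82 CPM in replicate 3 stood against counts of 0, which allow 0.0945 and 0.119 CPM, in the others.

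At the entry of pyruvate into mitochondria, the kinase genes spanned wider ranges between libraries than their target. Pdha1, which encodes the catalytic subunit of pyruvate dehydrogenase that the kinases phosphorylate, was at 78.9, 104 and 75.5 CPM. Pdk4, the kinase gene induced by fasting and fatty acids, was at 19.7, 55.7 and 29.3 CPM and was the highest of the 4 kinase genes per kilobase of merged exons in every library. Without length correction, Pdk1 lay above it in replicate 3. Per kilobase, Pdk4 made up 46.8%, 61.6% and 59.8% of the summed level of the 4 kinase genes. Pdk1, a hypoxia-responsive form, was at 0.882, 5.23 and 36.2 CPM, a 41.1-fold range. Pdk3 was at 10.4, 15.7 and 0.786 CPM, and Pdk2 at 7.02, 9.79 and 2.04 CPM. The high library for Pdk1 was the low library for Pdk2 and Pdk3. Pdk1 was at 3.06 CPM without replicate 3, against 14.1 with it, and Pdk3 at 5.57 without replicate 2, against 8.96.

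Of 10 further genes for the pyruvate dehydrogenase complex, its phosphatases, pyruvate transport and carboxylation, 7 were detected. The mitochondrial pyruvate carrier subunit gene Mpc2 had 224 ± 66.1 CPM, the E3 subunit gene Dld 101 ± 15.0 and the E1 beta gene Pdhb 83.9 ± 19.8. Pdpr, a phosphatase regulatory gene, had 0 counts. Pdp2 and Pcx, which encode a phosphatase and pyruvate carboxylase, fell below 1 CPM in 1 library each, at 0.571 and 0.198 CPM.

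All 4 pentose phosphate members were detected. In the oxidative branch, which makes NADPH, G6pdx was at 43.8, 69.6 and 96.3 CPM and Pgd at 57.8, 79.1 and 52.6 CPM. In the branch that rearranges sugars, the transketolase gene Tkt was at 34.0, 39.0 and 32.5 CPM and the transaldolase gene Taldo1 at 53.6, 40.1 and 64.5 CPM. Per kilobase, G6pdx (22.7 ± 8.52) and Taldo1 (24.3 ± 5.63) overlapped, and Tkt (4.79 ± 0.463) lay below both. Of the exon bases of G6pdx, 13.6% overlap the opposite-strand gene Ikbkg, and of those of Pdha1, 16.2% overlap Map3k15. How counting treated strand is not given, so reads of a gene and its opposite-strand neighbour cannot be told apart in the shared bases. The other overlaps above 10% of exon bases were with genes that had no row of their own. They were Pfkfb2 with Gm29427 (17.4%), Pkm with Gm49759 (15.3%) and Pfkm with Gm26513 (10.2%), all on the same strand, and Gpi1 with Gm26762 (11.5%) on the opposite strand. All 7 of the further pentose phosphate genes were detected as well, and the 3 with the most CPM, before length is considered, were H6pd (63.4 ± 18.2 CPM), Rpe (39.9 ± 3.08) and Prps1 (31.0 ± 16.2). Per kilobase these 3 stood at 12.1, 12.8 and 15.6 CPM per kilobase.

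Over all 9 families of alternative genes, 25 pairs were compared per kilobase within each library. In 17 of 25 pairs the difference had 1 sign in 3 of 3 libraries, and for these the exact two-sided sign-flip permutation test gave p = 0.25 (0.37 after Benjamini-Hochberg adjustment over the 25). That is the smallest p that 3 libraries allow, so no pair could pass 0.05. Of the 10 pairs with both genes detected, 6 kept 1 sign. The 8 pairs without a steady sign were 2 of the enolase genes, 3 of the PFKFB genes and 3 of the PDK genes.

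**Figure D3:**
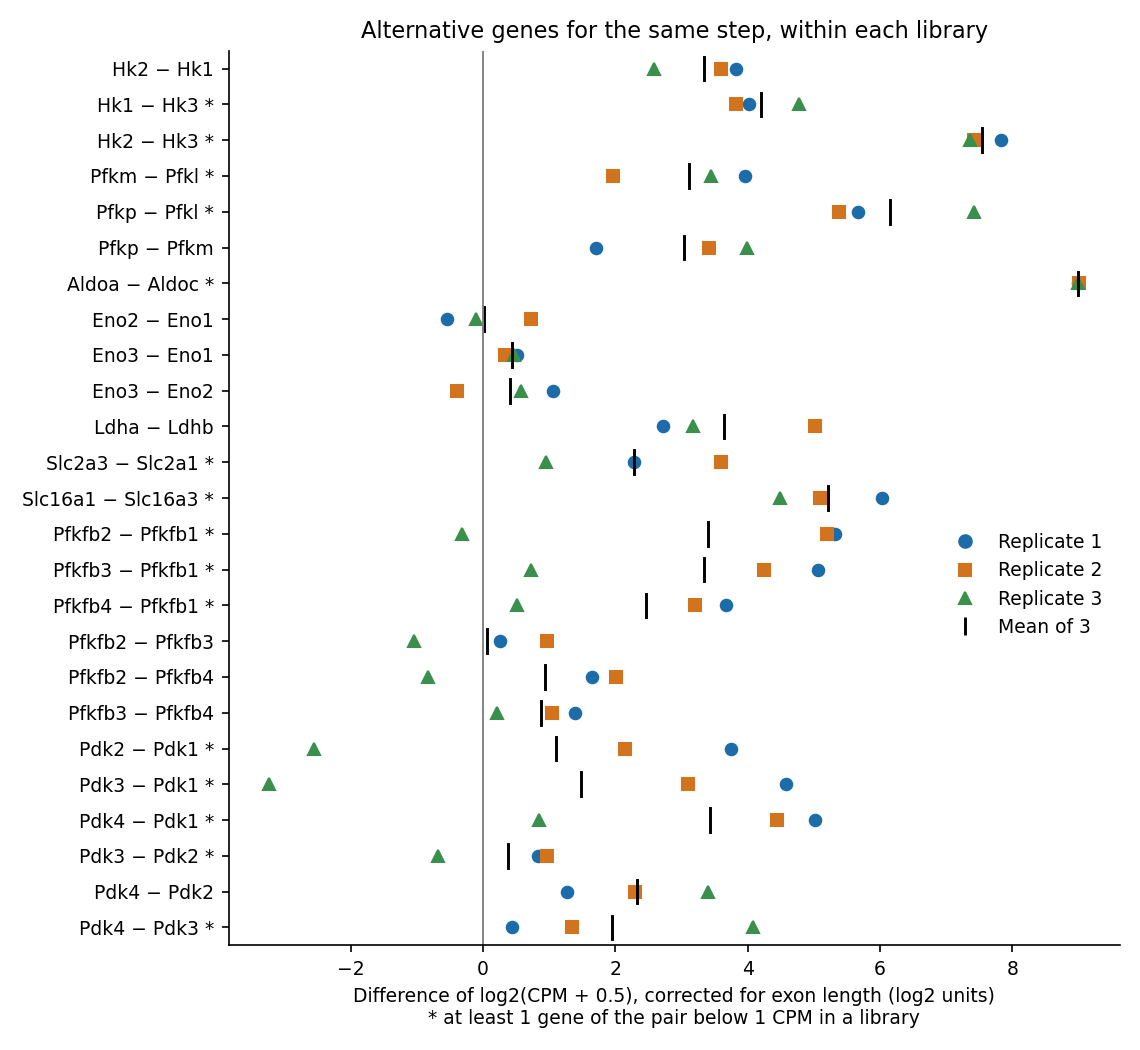
Difference in length-corrected log2(CPM + 0.5) between the members of each of 25 pairs (horizontal axis, log2 units), with 1 symbol per library and the mean as a vertical bar. The hexokinase, phosphofructokinase, aldolase, lactate dehydrogenase and transporter pairs lie on 1 side of 0 in 3 of 3 libraries, and the 8 pairs that cross 0 are enolase, PFKFB and PDK pairs.

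The spread of the 27 detected members between libraries was set beside that of all detected genes, with no test. The ratio of the highest to the lowest library had a median of 1.61 over these members and 1.93 over all 9515 detected genes. It was under 2-fold for 59.3% of the members and 53.3% of all detected genes. Pfkp, Aldoa and Ldha were the steadiest, at 1.12 to 1.15-fold, and Slc2a3 the least steady of the detected members, at 11.4-fold.

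Each library was set against the other 2 over 13289 genes with edgeR's quasi-likelihood test, and 33 members had counts enough to enter. The library tested has no spread of its own in such a test and is assumed to vary like the other 2, so a p that misses the threshold does not show that libraries were alike. None of the 33 passed a Benjamini-Hochberg adjusted p of 0.05 in replicate 1, 2 or 3, and neither did any other gene (0% called in each), with smallest adjusted p among members of 0.99, 0.98 and 0.89. At an unadjusted p under 0.05, 1, 0 and 3 members stood out, against 3.85%, 4.96% and 5.07% of all genes tested. These were Pdk1 in replicate 1, by -4.55 ± 1.77 (SE) on the log2 scale, and Pfkfb1 (10.97 ± 3.25), Pdk1 (3.57 ± 1.25) and Pdk3 (-4.05 ± 1.74) in replicate 3. The size for Pfkfb1 depends on the prior count, since it had 0 counts in the others. With DESeq2's Wald test only Pfkfb1 in replicate 3 passed among members (adjusted p = 0.041), where 1.48% of all genes did. The summed level of the 7 skeletal muscle markers was also highest in replicate 3, at 7.21 CPM against 1.10 and 2.97. Tnni2 (4.93 CPM) and Mylpf (2.18) made up nearly all of it, while Acta1, Myh1, Myh4 and Tnnt3 had 0 counts there. The part of muscle RNA in these values was not tested.

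**Figure D4:**
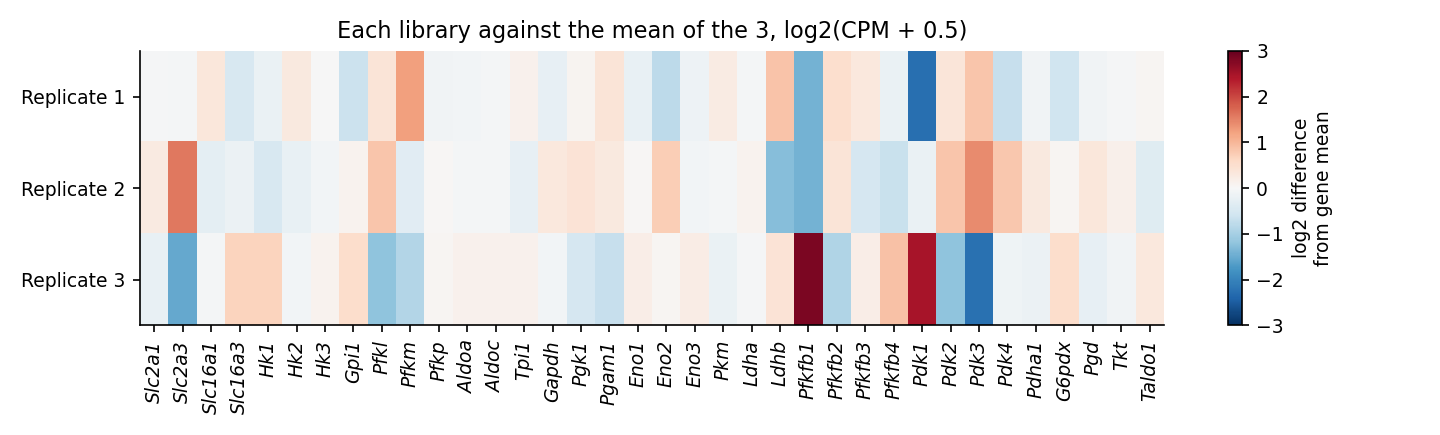
Deviation of each library from the mean of the 3 for the 36 genes, in log2(CPM + 0.5), with red above and blue below the mean. The strongest colours are those of Pfkfb1, Pdk1 and Pdk3 in replicate 3 and Pdk1 in replicate 1, while Pfkp, Aldoa and Ldha are near white in 3 of 3 libraries.

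Genes of neighbouring routes were counted by list. Of 15 tissue-restricted relatives of the members none was detected, and Pgam2 (a muscle form), Pgk2 (a testis form) and Tktl2 had 0 counts. In gluconeogenesis, 2 of 6 genes were detected, Pck2 (18.1 ± 13.7 CPM, or 10.8 without replicate 2) and G6pc3 (9.59 ± 2.20), while the liver genes G6pc and Fbp1 and the muscle gene Fbp2 had 0 counts. Pck1, the cytosolic form that adipocytes use in glyceroneogenesis, had 7, 2 and 0 counts. Of 11 glycogen genes, 8 were detected. The most CPM, before length is considered, fell to the liver-type phosphorylase gene Pygl (126 ± 31.0 CPM), a phosphorylase kinase subunit gene, Phkb (31.9 ± 2.78), and the branching enzyme gene Gbe1 (31.3 ± 8.52). Per kilobase the order was Pygl (18.3 CPM per kilobase), the glycogenin gene Gyg (11.9) and Gbe1 (5.84). The liver synthase gene Gys2 had 0 counts. Of 8 genes of side branches, 5 were detected, and the highest in CPM were Minpp1 (35.2 ± 8.54), Gpd1l (26.0 ± 5.70) and Gpd2 (23.5 ± 14.9), at 13.2, 5.13 and 3.58 CPM per kilobase.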

How the data were processed

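The deposited table holds read counts per NCBI gene ID for 3 libraries, as whole numbers that the authors did not normalize. The cDNA was amplified with a SMARTer Ultra Low Input kit (V4), and no molecular identifiers are mentioned, per the labels' protocols. Tools in the submitters' processing notes are STAR 2.3.0 and CASAVA 1.8.2, with the build mm10. For the counting tool, its annotation and its handling of strand and of reads with several matches, the sources used here give nothing.

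Symbols and coordinates came from RefSeq (GRCm38.p6, 25275 of 27179 IDs matched). CPM used TMM library sizes (edgeR 4.0.16, R 4.3.3), and log2 values a pseudocount of 0.5. Exon lengths (merged exons), coding sequences and pseudogenes came from GENCODE M21, with BLAST 2.17.0 and exact matching of windows on either strand, leaving out genes that overlap the member. Pairs were tested by exact sign-flip permutation. Each library was tested against the others with edgeR's quasi-likelihood test (genes with 10 counts or more in a library), checked on simulated data, with DESeq2 1.42.0 as an alternative. Depth was 25060096 to 32813373 counts per library. Planned coding lengths from RefSeq proteins were replaced by those of GENCODE. Members, lists and tests were chosen with earlier results of these data known. All 36 members and, of each other list, the 3 highest genes, those at 0 counts and those needed for a small count were to be named, and other genes named were chosen after their values were seen.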

Additional observations from a re-analysis of the deposited data

How the results depend on the processing

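Of 36 members, 27 were detected, and 12 were at a threshold of 20 CPM in place of 1. Among the 24 members without a processed pseudogene (a restriction chosen after seeing the data), 16 were detected. The median member level of 13.7 CPM ranged from 13.0 to 17.2 CPM when each replicate was left out in turn. Of the pairs with both genes detected, also chosen after seeing the data, 6 of 10 had 1 sign, against 17 of 25 in all. With DESeq2, 1 member passed in replicate 3 against 0 with edgeR. Over all genes, where edgeR called 0 in each replicate, DESeq2 called 126, 199 and 197, and edgeR without a filter on low counts 16, 16 and 36, with 0 members among the latter. With 50 counts as the minimum edgeR called 0, 2 and 0 genes. These pair differences turned sign (log2). Without length correction, Eno2 minus Eno1 was -0.17, Eno3 minus Eno1 -1.19, Eno3 minus Eno2 -1.02, Pfkfb2 minus Pfkfb3 -0.00073, Pdk2 minus Pdk1 -0.19 and Pdk3 minus Pdk1 -0.12. With GENCODE coding lengths, added after seeing the data in place of lengths from RefSeq proteins, which were not run, they were -0.17, -1.19, -1.02, -0.0033, -0.096 and -0.055. With the longest transcript, the enolase differences were -0.64, -0.82 and -0.19. Leaving out each replicate gave -0.33 to 0.31 for Eno2 minus Eno1, -0.39 to 0.61 for Pfkfb2 minus Pfkfb3, -0.21 to 2.94 for Pdk2 minus Pdk1 and -0.064 to 3.84 for Pdk3 minus Pdk1. The cause was not tested. The other 385 single-gene and pair values and 33 summary values kept their direction and their side of the threshold, or met a rule of size. For counts, that rule was to stay within 1.5 times the main value, and for levels, within the spread between replicates. Leaving out 1 of 3 libraries cannot move the mean of a gene beyond that spread, so such levels could not fail the rule. They include Pfkfb1, at 0 CPM without replicate 3 against 2.94 with it, and Pdk1, at 3.06 against 14.1. No paired analysis was possible because all libraries are of 1 group. Leaving out a library from the tests between libraries leaves 1 against 1, with no residual degrees of freedom, so that was not run. With 3 counts as the floor, levels under 0.0945 to 0.119 CPM cannot be told from 0.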
